A study of Mus musculus with 6 samples.

Results

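Integrins and laminins are the chains of the main receptors and of a main ligand of the basement membrane. Rows of the deposited table were taken as members when their symbol was Itga, Itgb, Lama, Lamb or Lamc followed by the number or letter of a chain, and 34 of the 14865 listed genes fitted. These were 15 integrin alpha chains, 8 integrin beta chains and 11 laminin chains. Polyadenylated RNA was taken from the cochlear duct of 8-day-old C57BL/6 mice and sequenced as 6 libraries, 3 from Gfi1+/+ mice and 3 from Gfi1cre/+ mice. The Gfi1cre/+ mice are heterozygous for an allele in which Cre was inserted at the Gfi1 gene, and the Gfi1+/+ mice carry no Cre. Each Gfi1+/+ library held the 2 cochleae of 1 mouse and each Gfi1cre/+ library the pooled 6 cochleae of 3 mice. The comparison asks whether the loss of 1 Gfi1 copy and the presence of Cre go with a change in cochlear gene expression.

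An integrin is a transmembrane dimer of 1 alpha and 1 beta chain that ties the cytoskeleton to the extracellular matrix or to another cell. The alpha chain largely sets the ligand, so that some integrins bind laminin, others collagen, and others the RGD sequence of fibronectin, vitronectin or osteopontin. A laminin is a trimer of 1 alpha, 1 beta and 1 gamma chain, and it is the protein on which a basement membrane is built. In the cochlea, basement membranes lie under the sensory and nonsensory epithelium, around the capillaries of the stria vascularis and around Schwann cells. Integrins with the Itgb2 or Itgb7 chain belong to leukocytes, and Itgam in particular marks macrophages, monocytes and granulocytes. A chain acts only once it is assembled with its partners, and RNA levels do not show assembly.

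The values are normalized reads, which are counted reads over a size factor per library, and the 3 values of a genotype are given in the order of its replicate numbers. The libraries held between 13603908 and 19359753 reads counted on genes, with the 3 Gfi1cre/+ libraries the deepest. A count of 0 allows up to 3 reads, or 2.61 to 3.70 normalized reads depending on the library, and every member was above this in every library, down to 29 reads for Itgb7. Gfi1 itself had 147, 160 and 152 normalized reads in the 3 Gfi1+/+ libraries and 136, 130 and 139 in the Gfi1cre/+ libraries. The genotypes did not overlap, as in 7.52% of all genes tested. The log2 fold change of Gfi1 was -0.18 (SE 0.0975, unadjusted p = 0.0945, adjusted p = 0.999 by limma), so the difference did not pass the test. The paper also reports no significant decrease, and states that what is left of the transcript still adds reads. The Y-linked Ddx3y had no read in the Gfi1+/+ libraries and 231.5 to 485.0 normalized reads in the Gfi1cre/+ libraries, so sex and genotype cannot be told apart. The female transcript Xist had 7338, 7936 and 8138 normalized reads in the Gfi1+/+ libraries and 5359, 4987 and 2301 in the Gfi1cre/+ libraries. The Gfi1cre/+ pools thus held RNA of both sexes, in shares that differed between them. Gfi1+/+ replicate 1 stood apart from the other 5 libraries in its neuron markers, which came to 10025 normalized reads against 1792 to 3666 elsewhere. Its summed bone and cartilage markers were the lowest at 298094, of which the cartilage collagen Col2a1 made up 274391, and without Col2a1 Gfi1+/+ replicate 2 was the lowest at 16176 against 23703 in Gfi1+/+ replicate 1. The sample is labelled cochlear duct, and all 11 hair cell markers and 8 of 10 cochlear epithelium markers looked for had a row. In bulk RNA, fewer cells of a type and less RNA per cell cannot be told apart.

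Levels of different genes were compared as normalized reads per kb of merged exons, and every such level below is a mean over the 6 libraries unless a library is named. Of the 34 chains, Lamc1 had the highest level at 1952 per kb (range over libraries 1647 to 2281), followed by Itgb1 at 1923 (1790 to 1974) and Itgb5 at 1776 (1663 to 1860). The lowest were Lama3 at 7.54 (6.20 to 8.78) and Lama1 at 4.47 (3.87 to 5.30). Lamc1, Itgb1 and Itgb5 were each above 97% of the listed genes of known length, and Lama1 was above 1.32% of them. The plot of levels by library shows 33 chains.

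**Figure D1:**
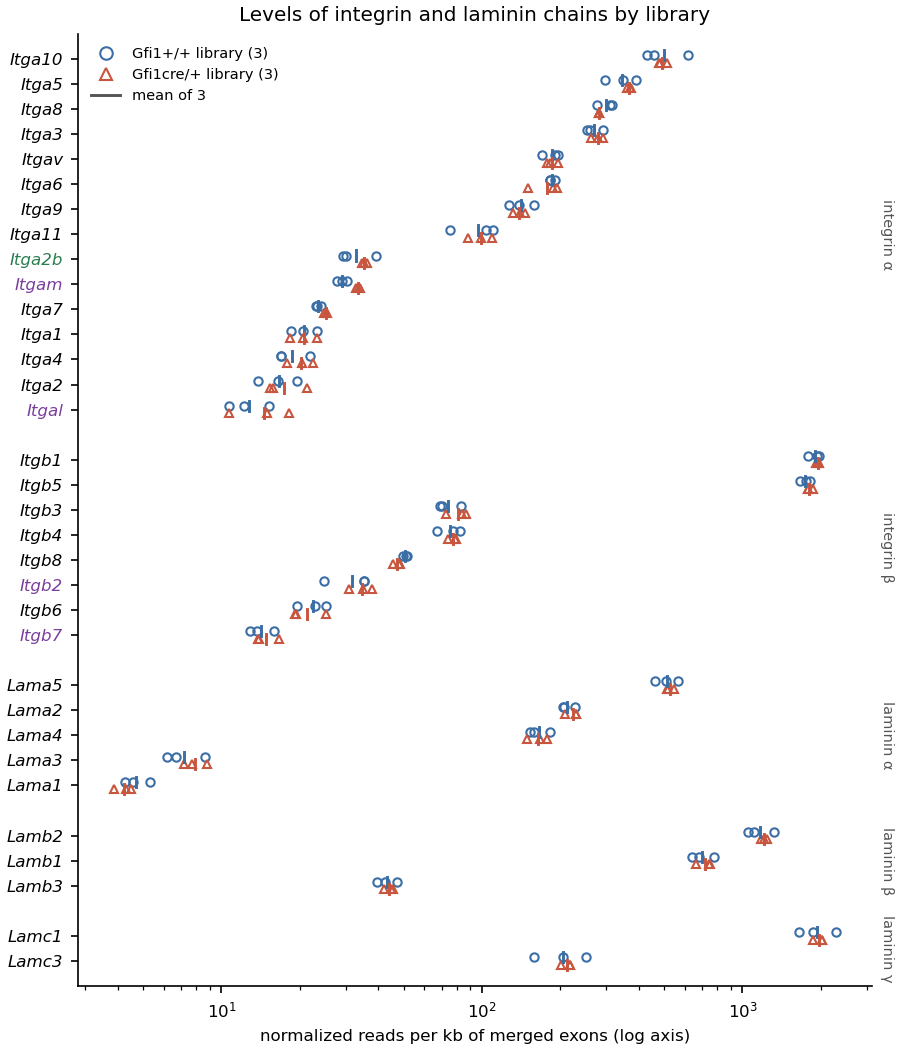
Level of 33 chains in normalized reads per kb of merged exons on a log axis, with 1 circle per Gfi1+/+ library, 1 triangle per Gfi1cre/+ library and a bar at the mean of 3. Symbols of leukocyte chains are purple and that of the platelet chain is green, and within each family the chains fall from top to bottom. Itgb1 and Itgb5 stand far above the other beta chains, while the alpha chains fall gradually.

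Among the beta chains, the bulk of the RNA belonged to Itgb1, the common partner of most alpha chains, and to Itgb5, whose known partner is Itgav. Itgb1 (ENSMUSG00000025809), on chromosome 8, reached 8026, 7918 and 7304 normalized reads in the 3 Gfi1+/+ libraries and 7955, 7817 and 8056 in the 3 Gfi1cre/+ libraries. Itgb5 had 5910, 6432 and 6249 normalized reads in the Gfi1+/+ libraries and 6608, 6320 and 6335 in the Gfi1cre/+ libraries. The genotypes overlapped in both chains. Together they made up 92.7% to 93.7% of the summed beta level in every library. Itgb1 was above Itgb5 in 6 of 6 libraries by a mean factor of 1.08, although their ranges overlapped. Next came Itgb3, which pairs with Itgav or Itga2b, at 77.6 per kb and Itgb4, the hemidesmosomal partner of Itga6, at 76.5, and these 2 were not in the same order in every library. Itgb8 (49.0 per kb), Itgb2 (33.1), Itgb6 (21.9) and Itgb7 (14.5) followed.

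The alpha chains formed a series from 496 to 13.7 per kb with no break like that among the beta chains. The highest was Itga10, a collagen receptor chain of chondrocytes, with 2367, 2225 and 3207 normalized reads in the Gfi1+/+ libraries and 2655, 2491 and 2500 in the Gfi1cre/+ libraries. Gfi1+/+ replicate 3 was the highest of the 6 libraries, as it was for the bone and cartilage markers with Col2a1 (375917 normalized reads) and without it (45405), and the genotypes overlapped. Itga10 shares 33.5% of its exon bases with the annotated gene Gm42957, which has no row, and how reads on those bases were counted is not given in the sources used here. The RGD-binding chains Itga5, the fibronectin receptor chain, and Itga8, the nephronectin receptor chain, were next at 356 and 291 per kb. Itga5 had 1461, 1919 and 1715 normalized reads in the Gfi1+/+ libraries and 1846, 1777 and 1829 in the Gfi1cre/+ libraries, with Gfi1+/+ replicate 1 the lowest and the genotypes overlapping.

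Of the laminin-binding alpha chains, Itga3 was the highest at 273 per kb, Itga6 stood at 181 and Itga7, known from muscle and Schwann cells, at 24.3. Itga3 had 1478, 1449 and 1666 normalized reads in the Gfi1+/+ libraries and 1500, 1597 and 1662 in the Gfi1cre/+ libraries, and the genotypes overlapped. The place of Itga6 rests on the length used. Its merged exons are 2.09 times as long as its longest transcript, and per kb of the longest transcript it had 379.5, which moved it from the 6th to the 3rd alpha chain, above Itga8 and Itga3. Itgav, the partner of 5 beta chains, had 186 per kb, Itga9 had 140, and Itga11, a collagen receptor of fibroblasts, had 97.8. Itga9 and Itga4 bind osteopontin, tenascin or VCAM and form a class of their own, of which Itga9 was the higher, with 980, 1221 and 1063 normalized reads in the Gfi1+/+ libraries and 1014, 1128 and 1073 in the Gfi1cre/+ libraries. The rest, namely Itga2b, Itgam, Itga7, Itga1, Itga4, Itga2 and Itgal, lay between 34.1 and 13.7 per kb, with Itga1 at 20.7, Itga4 at 19.4 and Itga2 at 17.0, and of the neighbours among these 7 only Itgam and Itga7 had ranges that did not overlap. That order also rests on the length: per kb of the longest transcript Itga7 had 46.4 to 51.2 over the 6 libraries, above Itgam at 29.8 to 36.4. The collagen-binding chains took 26.6% to 32.6% of the summed alpha level, the laminin-binding chains 20.5% to 23.2% and the RGD-binding chains 36.9% to 42.3%, with the genotypes overlapping in each. Per kb of the longest transcript the collagen-binding share was 22.2% to 27.2% and the laminin-binding share 25.3% to 28.7%, so these classes changed places.

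Laminin alpha chains ran over a wide range, with Lama5 at 116 times Lama1. Among them, Lama5, the chain of most mature epithelial and vascular basement membranes, took 55.6% to 58.7% of the summed level, Lama2, the chain of Schwann cell and muscle basement membranes, 22.6% to 24.9%, and Lama4, an endothelial and mesenchymal chain, 16.5% to 20.1%. Per kb of merged exons the ranges of these 3 over the 6 libraries did not overlap. Lama5 had 5278, 5786 and 6420 normalized reads in the Gfi1+/+ libraries and 5883, 6192 and 5858 in the Gfi1cre/+ libraries. Gfi1+/+ replicates held both the lowest and the highest value. Lama3, the chain of epidermal anchoring filaments, and Lama1, an embryonic chain, were at the bottom, with 36 to 49 reads per library for Lama1 and 54 to 100 for Lama3. Lama4 had 165 per kb of merged exons and 328.5 per kb of the longest transcript, and its rank among the alpha chains was the same by both, but by the longest transcript its range of 296 to 366 over the libraries overlapped that of Lama2 at 347 to 391.

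Among the beta and gamma laminins, Lamb2 was above Lamb1 in every library per kb of merged exons, with means of 1186 and 710. Per kb of the longest transcript they had 1282 and 1217, since the merged exons of Lamb1 are 1.71 times its longest transcript, and by that length Lamb1 was above Lamb2 in Gfi1+/+ replicate 2, at 1336 against 1200. Lamb2 had 6415, 6753 and 8065 normalized reads in the Gfi1+/+ libraries and 7163, 7560 and 7341 in the Gfi1cre/+ libraries. Lamc1, the gamma chain of most laminins, took 79.8% to 81.5% of the summed gamma level, with 15424, 13622 and 18866 normalized reads in the Gfi1+/+ libraries and 15460, 16769 and 16741 in the Gfi1cre/+ libraries. In both Lamb2 and Lamc1 the 3 Gfi1cre/+ libraries lay inside the spread of the Gfi1+/+ libraries, whose replicate 3 was the highest. Lamc3 had 209 per kb and Lamb3 had 43.6. Among the integrins, Itga2 and Itga1 are neighbours on chromosome 13, 21.0 kb apart on the same strand.

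Of 24 integrin dimers known in general, 21 had both chains in the table, and the other 3 contain Itgad, Itgae or Itgax, which were not analysed here. In 16 of the 21 the alpha chain had the lower mean level per kb, and in 5 the beta chain did (Itgb3, Itgb8 and Itgb6 with Itgav, Itgb4 with Itga6, and Itgb7 with Itga4). The same chain was the scarcer in all 6 libraries in 20 of the 21. The exception was Itgam with Itgb2, where Itgam was the scarcer in 4 of 6 libraries and the means differed by a factor of 1.06. By the scarcer chain, the pairs led with Itga10-Itgb1 (496 per kb), Itga5-Itgb1 (356), Itga8-Itgb1 (291) and Itga3-Itgb1 (273), and ended with Itga4-Itgb7 (14.5) and Itgal-Itgb2 (13.7). Alpha chains whose only known partner is Itgb1 summed to between 0.808 and 1.02 times the Itgb1 level. Itga6 was 2.03 to 2.71 times Itgb4.

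In the table were all chains of the 13 laminin trimers described, and in 11 of them the alpha chain was the scarcest. The other 2 contain Lamc3, joined to Lama5 with Lamb2 or to Lama2 with Lamb1. The gamma chains summed to 2.22 to 2.97 times the alpha chains and to 1.05 to 1.39 times the beta chains. By the scarcest chain, the trimers of Lama5 with Lamb1 or Lamb2 and Lamc1 led at 518 per kb, ahead of those of Lama2 (218) and Lama4 (165). Lamb3 was 4.81 to 7.07 times Lama3, its known alpha partner. The alpha chain was the scarcest in 27 of these 34 assemblies per kb of merged exons and in 26 per kb of the longest transcript. These are RNA levels of a mixed tissue, and chains of 1 assembly need not come from the same cells.

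**Figure D2:**
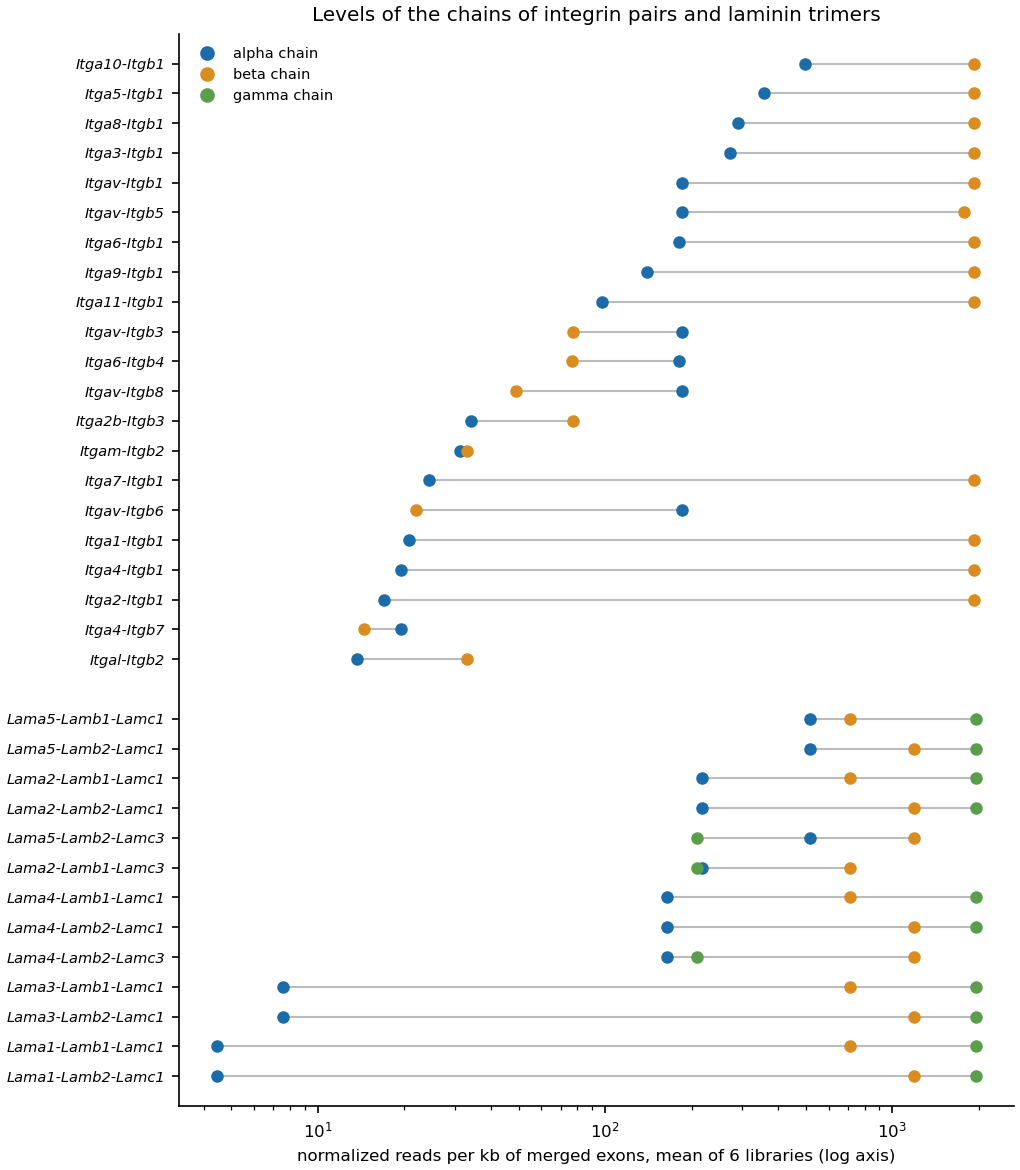
Mean level of the chains of 21 integrin pairs and 13 laminin trimers over 6 libraries, in normalized reads per kb of merged exons on a log axis, with alpha chains in blue, beta chains in orange and gamma chains in green. The blue point is the leftmost in 27 of 34 assemblies, and the lines are shortest for Itgam-Itgb2 and Itga4-Itgb7.

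The leukocyte chains were Itgam, Itgal, Itgb2 and Itgb7, and Itga2b was the platelet chain. Promoter windows from RefSeq (build GRCm38.p6) were at hand for 22 of the 34 members, 2 of them leukocyte chains, and the 250 bases before the annotated start were searched on both strands for GAGGAA, the core of sites of the myeloid factor PU.1 and its relatives, for the GC box GGGCGG and for the TATA motif TATAAA. The windows of the 2 leukocyte chains and of the 2 highest beta chains are shown to set leukocyte beside tissue promoters, 5′ to 3′ on the strand of the gene, with matches to the first 2 motifs and their reverse complements in capitals.
Itgam (chr7:128062390-128062639, plus strand): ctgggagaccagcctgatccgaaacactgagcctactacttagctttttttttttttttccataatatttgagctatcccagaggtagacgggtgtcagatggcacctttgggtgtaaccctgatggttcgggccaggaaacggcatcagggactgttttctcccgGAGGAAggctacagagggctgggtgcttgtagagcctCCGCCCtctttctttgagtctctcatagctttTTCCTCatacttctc
Itgb7 (chr15:102231936-102232185, minus strand): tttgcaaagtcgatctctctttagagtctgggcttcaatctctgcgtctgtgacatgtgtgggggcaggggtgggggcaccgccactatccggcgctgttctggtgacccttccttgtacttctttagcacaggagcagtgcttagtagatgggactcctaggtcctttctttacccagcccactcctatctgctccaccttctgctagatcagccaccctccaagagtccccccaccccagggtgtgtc
Itgb1 (chr8:128685404-128685653, plus strand): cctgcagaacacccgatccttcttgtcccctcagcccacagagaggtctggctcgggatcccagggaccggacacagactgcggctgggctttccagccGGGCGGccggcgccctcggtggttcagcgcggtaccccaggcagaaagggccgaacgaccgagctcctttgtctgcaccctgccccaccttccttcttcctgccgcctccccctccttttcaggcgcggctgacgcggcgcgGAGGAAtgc
Itgb5 (chr16:33829415-33829664, plus strand): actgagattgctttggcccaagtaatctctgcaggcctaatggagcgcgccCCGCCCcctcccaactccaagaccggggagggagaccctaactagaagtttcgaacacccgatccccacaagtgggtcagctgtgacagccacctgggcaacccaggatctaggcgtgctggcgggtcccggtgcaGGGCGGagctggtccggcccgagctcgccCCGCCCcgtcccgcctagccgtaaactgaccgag
The Itgam window held GAGGAA 2 times and the GC box 1 time, the Itgb7 window held neither, the Itgb1 window held each 1 time, and the Itgb5 window held the GC box 3 times. Over the 22 members, 11 windows held GAGGAA (50.0%, against 23.3% of all 32851 windows), 8 held the GC box (36.4% against 32.7%) and none held TATAAA (against 12.4%). GC content was 49.6% in the Itgam window, 56.0% in that of Itgb7, 68.0% in that of Itgb1 and 65.2% in that of Itgb5, with a median of 58.6% over the 22 and 52.4% over all windows. A match of letters is a description and not a site of binding.

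The leukocyte chains were low in the cochlear duct. Itgb2, the beta partner of Itgam and Itgal, had 33.1 per kb, Itgam 31.2, Itgb7 14.5 and Itgal, the alpha chain of LFA-1 on lymphocytes and other leukocytes, 13.7. Tissue integrins ran from 17.0 to 1923 per kb with a median of 119. Itgal and Itgam summed to 1.12 to 1.62 times Itgb2. Itgam was 1.87 to 3.07 times Itgal. The leukocyte alpha chains made up 1.97%, 1.81% and 1.97% of the summed alpha level in the 3 Gfi1+/+ libraries and 2.04%, 2.34% and 2.19% in the 3 Gfi1cre/+ libraries. The Gfi1cre/+ libraries were all above the Gfi1+/+ libraries, the nearest being Gfi1cre/+ replicate 1 and Gfi1+/+ replicate 3. This share contains Itgam, whose libraries did not overlap, and Itgal, whose libraries did, so it is not a result apart from Itgam. Of all genes tested, 7.52% had libraries of the genotypes that did not overlap. The leukocyte beta chains took 0.969% to 1.37% of the summed beta level, with overlapping genotypes.

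Itgam (ENSMUSG00000030786, chromosome 7, 128062640 to 128118491, plus strand, GRCm38) encodes the alpha chain of complement receptor Mac-1. It had 139.5, 145.5 and 153.0 normalized reads in the 3 Gfi1+/+ libraries and 165.4, 170.4 and 168.0 in the 3 Gfi1cre/+ libraries. The lowest Gfi1cre/+ library was above the highest Gfi1+/+ library, for which a two-sided exact permutation test gives p = 0.1, the lower limit of the design of 3 against 3. The log2 fold change was 0.20 (SE 0.0927, 95% interval -0.01 to 0.41, unadjusted p = 0.0576, adjusted p = 0.999 by limma with Benjamini-Hochberg adjustment), so the difference did not pass the test. Itgam shares 68.7% of its exon bases with the annotated gene Gm49368 on the same strand, which has no row. The 16 macrophage markers tested summed to 9162 to 9957 normalized reads in Gfi1+/+ and 9084 to 9864 in Gfi1cre/+, overlapping. Macrophage defining markers were thus present in all libraries. In the fit 10 of 16 were higher in Gfi1cre/+ (against 49.9% of all genes tested), and 7 of 16 without Gfi1cre/+ replicate 2. Only Lyz2, 1 of 16, was at an unadjusted p under 0.05, and it was higher (against 1.02% of all genes tested in that direction). Of 11 granulocyte markers 6 had a row, and these summed to 61.7, 78.5 and 271 normalized reads in the Gfi1+/+ libraries and 460, 236 and 290 in the Gfi1cre/+ libraries, and 6 of 6 were higher in Gfi1cre/+, 4 of them at an unadjusted p under 0.05 (against 1.02% of all genes tested in that direction). Their part in the Itgam difference was not tested.

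The other leukocyte and platelet chains overlapped between genotypes. Itgb2 had 75.3, 107.8 and 107.6 normalized reads in the Gfi1+/+ libraries and 94.0, 115.4 and 106.6 in the Gfi1cre/+ libraries, with Gfi1+/+ replicate 1 the lowest. Itgal had 80.2, 70.2 and 100.2 in the Gfi1+/+ libraries and 70.5, 119.0 and 98.1 in the Gfi1cre/+ libraries, a wide spread in both genotypes. Itgb7, which pairs with Itga4 on gut-homing lymphocytes, had 35.8, 44.0 and 38.0 in the Gfi1+/+ libraries and 38.3, 46.2 and 38.7 in the Gfi1cre/+ libraries, the lowest being 29 reads. Their log2 fold changes were 0.13 for Itgb2, 0.18 for Itgal and 0.06 for Itgb7, and their 95% intervals reached from -0.42 to 0.66. The fold change of Itgal was 0.01 without Gfi1cre/+ replicate 2 and 0.38 without Gfi1cre/+ replicate 1. That of Itgb2 was -0.04 without Gfi1+/+ replicate 1 and that of Itgb7 -0.02 without Gfi1cre/+ replicate 2. Of 11 lymphocyte markers only Cd2 and Lck had a row, and their sums, from 90.1 to 128.8 normalized reads, overlapped between the genotypes. Itga2b had 159.2, 163.3 and 214.1 normalized reads in the Gfi1+/+ libraries and 192.3, 189.1 and 197.2 in the Gfi1cre/+ libraries (log2 fold change 0.12), and of 8 platelet markers only Pf4 and Gp1bb had a row. These had log2 fold changes of -0.23 and -0.0015. Their sums overlapped at 452.5 to 501.1 normalized reads in Gfi1+/+ and 374.6 to 456.1 in Gfi1cre/+.

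**Figure D3:**
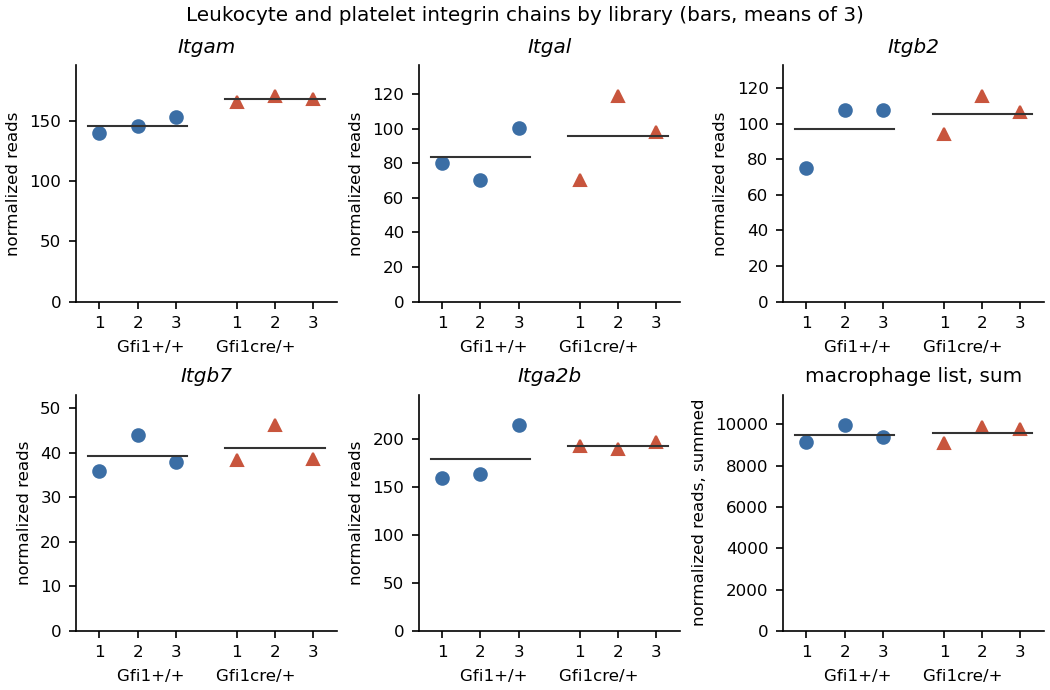
Normalized reads of the 4 leukocyte chains, of the platelet chain Itga2b and of the summed macrophage markers in each library, with Gfi1+/+ replicates as circles, Gfi1cre/+ replicates as triangles, bars at the means of 3 and each vertical axis starting at 0. Only Itgam separates the genotypes among these 6 panels, with 139.5 to 153.0 against 165.4 to 170.4.

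No member differed between the genotypes by the test. At an unadjusted p under 0.05 in limma's test there were 0 of 34 members, against 439 of 14455 genes tested (3.04%, with 1.02% higher and 2.02% lower in Gfi1cre/+). At an adjusted p under 0.05 there were also 0 of 34, against 4 genes (0.0277%), and by edgeR's quasi-likelihood test and DESeq2 on the recovered reads the members at an unadjusted p under 0.05 also numbered 0 each. The smallest unadjusted p was that of Itgam, and the largest changes after Itgam were those of Itgal and Lama1. Lama1 had 44.4, 51.3 and 41.1 normalized reads in the Gfi1+/+ libraries and 37.4, 41.7 and 43.4 in the Gfi1cre/+ libraries, a log2 fold change of -0.15 with overlapping genotypes. The log2 fold changes of the members ran from -0.15 to 0.20, with a median of 0.05 against a median of -0.0001 over all genes tested. For 29 of the 34 the 95% interval lay within 0.5 on the log2 scale on either side of 0, and the other 5 wider ones were Itgal, Itgb2, Itgb7, Lama3 and Lama1, which had between 29 and 134 reads per library. At this depth and number of libraries, the interval of Itgal reached from -0.30 to 0.66 and that of Lama1 from -0.61 to 0.30.

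**Figure D4:**
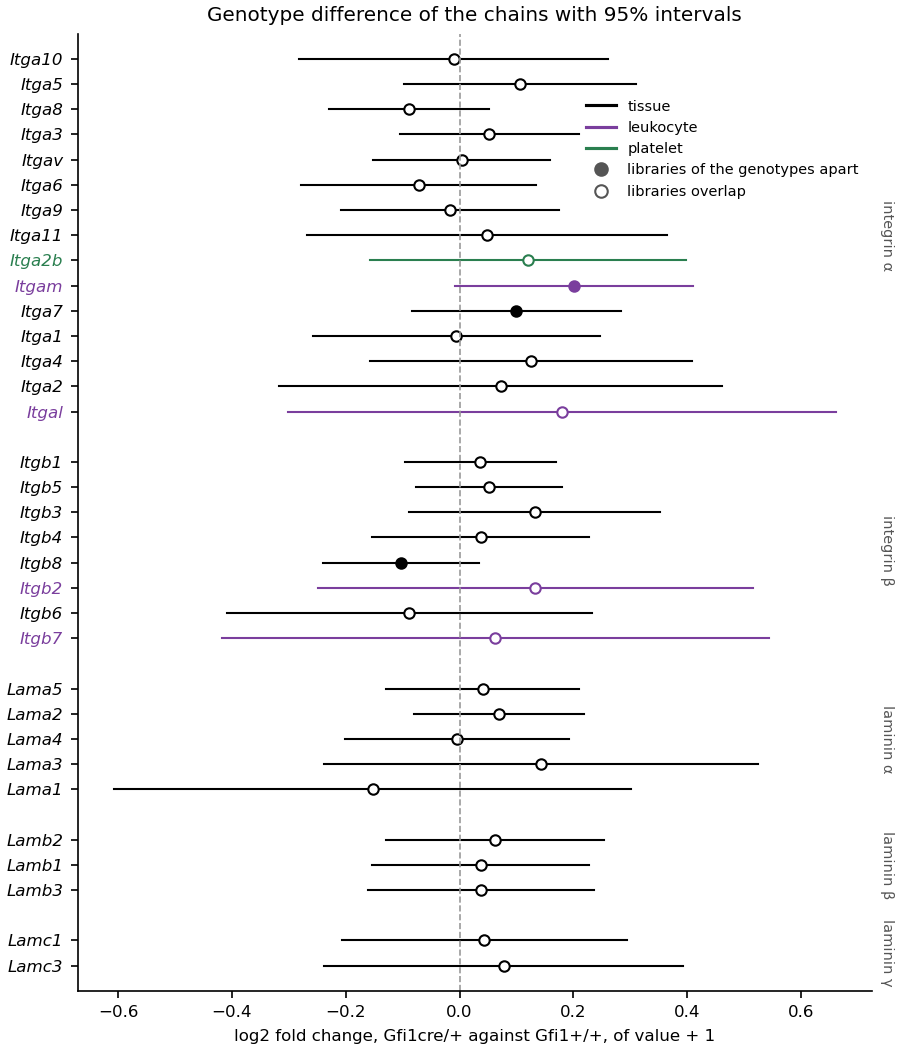
Log2 fold change of 33 chains, Gfi1cre/+ against Gfi1+/+, on the log2(value + 1) scale, with lines for the 95% interval of limma's test, purple for leukocyte chains, green for the platelet chain and filled points where the libraries of the genotypes did not overlap. Every interval includes 0, and the filled points are Itgam, Itga7 and Itgb8.

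In 3 of 34 members the libraries of the genotypes did not overlap, against 7.52% of all genes tested, 2 higher in Gfi1cre/+ (against 3.45%) and 1 lower (against 4.07%). Beside Itgam these were Itga7 and Itgb8. Itga7 had 186.4, 188.5 and 195.1 normalized reads in the Gfi1+/+ libraries and 201.1, 205.9 and 203.8 in the Gfi1cre/+ libraries, a log2 fold change of 0.10. Itgb8, which with Itgav activates latent TGF-beta, had 571.5, 549.7 and 563.3 in the Gfi1+/+ libraries and 503.1, 529.1 and 535.9 in the Gfi1cre/+ libraries, a log2 fold change of -0.10. For each, the same exact permutation test gave p = 0.1, the lower limit, and limma's adjusted p was 0.999. Markers of muscle, a known source of Itga7, were at 47.0 to 75.3 normalized reads in sum with 3 of 11 having a row, and Schwann and glia markers were at 21154 to 38768 in Gfi1+/+ and 17402 to 26971 in Gfi1cre/+, overlapping.

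By class, 4 of 4 leukocyte members were higher in Gfi1cre/+, with a median log2 fold change of 0.16. Of the 18 tissue integrins 11 were higher (median 0.04), and of the 11 laminins 9 were higher (median 0.04). Itga4, which also pairs with Itgb7, was counted as a tissue integrin. With Itga4 moved to the leukocyte members, the leukocyte median was 0.13 and that of the tissue integrins 0.04. Over all members 25 of 34 were higher, against 49.9% of all genes tested. The difference between leukocyte and tissue members was not tested, and these counts rested on single libraries. Without Gfi1+/+ replicate 1, 17 of 34 members were higher, namely 3 of 4 leukocyte members (median 0.08), 8 of 18 tissue integrins (median -0.03) and 5 of 11 laminins (median -0.01). Without Gfi1cre/+ replicate 2 the leukocyte median was 0.04 and that of the tissue integrins -0.01. Gfi1+/+ replicate 1 was the lowest of the 6 libraries in 19 of 34 members, and no Gfi1cre/+ library other than replicate 1 was the lowest in any. The part in these counts of the neuron markers of that library was not tested.

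Markers of red blood cells and vessels were set beside the leukocyte members. All 9 erythroid markers tested were higher in Gfi1cre/+, 6 of them at an unadjusted p under 0.05 (against 1.02% of all genes tested in that direction). Their sum was 463 to 749 normalized reads in Gfi1+/+ against 2126, 1146 and 808 in the Gfi1cre/+ libraries, with replicate 1 the highest. Without Gfi1cre/+ replicate 1, 8 of the 9 were higher, and their median log2 fold change fell from 1.76 to 1.08. Of 9 endothelial markers 8 were higher, 2 of them at an unadjusted p under 0.05 (against the same 1.02%). Their sums overlapped at 8701 to 9444 in Gfi1+/+ and 8718 to 9898 in Gfi1cre/+. Without Gfi1+/+ replicate 1, 5 of the 9 endothelial markers were higher. The part of these cells in the values of the leukocyte members was not tested.

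The Gfi1+/+ libraries, each from 1 mouse, varied more among themselves than the pooled Gfi1cre/+ libraries. The median SD of log2(value + 1) over the members was 0.155 in Gfi1+/+ and 0.0758 in Gfi1cre/+, against 0.119 and 0.0737 over all genes tested. The SD was larger in Gfi1+/+ in 28 of 34 members, against 10294 of 14455 genes tested. Lamc3, Lamc1, Lamb2 and Itga10 were highest in Gfi1+/+ replicate 3, with 1242, 966 and 1533 normalized reads of Lamc3 in the Gfi1+/+ libraries against 1324, 1226 and 1332 in Gfi1cre/+. Without Gfi1+/+ replicate 3, 8 members had an unadjusted p under 0.05, against 16.2% of all genes tested in that fit. Among them, Lamb2, Itga10, Itga2b, Lamc1, Lamc3 and Itgam were higher in Gfi1cre/+ and Itga8 was lower. For Lamb2 the log2 fold change was 0.16 there (SE 0.0492, adjusted p = 0.171 by limma), and none of the 8 had an adjusted p under 0.05. The libraries of 13 members did not overlap in that comparison, against 34.5% of all genes tested. Without Gfi1+/+ replicate 2, Itga5 and Itgb3 had an unadjusted p under 0.05 (against 3.78%), and the libraries of 9 members did not overlap (against 16.0%). Without Gfi1+/+ replicate 1, 0 members had an unadjusted p under 0.05 (against 2.10%).

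Genes that work with the members were taken from lists of ligands, basement membrane partners and adaptors. Of 19 integrin ligands outside the laminins, 15 had a row, and 8 were higher and 7 lower. Of the 15, 1 passed an unadjusted p under 0.05, against 3.04% of all genes tested (1.02% higher in Gfi1cre/+). That was Spp1, osteopontin, a ligand of Itgav and Itga9 integrins and the highest of the list at 6507 per kb. It had 10161, 10606 and 9850 normalized reads in the Gfi1+/+ libraries and 11254, 11421 and 11051 in the Gfi1cre/+ libraries, which did not overlap (as in 7.52% of all genes tested). Its log2 fold change was 0.14 (SE 0.0576, unadjusted p = 0.0379, adjusted p = 0.999 by limma). Of 16 basement membrane partners of laminin (collagen IV chains, nidogens, perlecan, agrin, dystroglycan and others), all had a row, 14 were higher, and none had an unadjusted p under 0.05. The share higher over all genes tested was 49.9%. Without Gfi1+/+ replicate 1, 7 of the 16 were higher, with a median log2 fold change of -0.03. The highest was Sparc, a collagen-binding protein of bone and basement membranes, at 47958 per kb. It had 158596, 166436 and 199725 normalized reads in the Gfi1+/+ libraries against 184197 to 193656 in Gfi1cre/+. Of 23 integrin-linked adaptors and kinases, 22 had a row, 17 were higher (13 without Gfi1+/+ replicate 1 and 21 without Gfi1cre/+ replicate 1), and none had an unadjusted p under 0.05. The highest was Cd151, a tetraspanin that binds laminin receptors, at 1210 per kb. Their medians were 0.04, 0.08 and 0.04 on the log2 scale, in the order named.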

How the data were processed

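Per the labels and the study's methods, the authors prepared TruSeq libraries, aligned paired reads to mm10 with TopHat, assigned unique reads to genes by HTSeq-count and retained those genes that had at least 40 reads. Versions, annotation and strand setting are not given in the sources used here. The authors deposited 1 signal per gene and library, for which the methods name quantile normalization. Divided by the value of 1 read, 100% of each column came out whole (tolerance 0.1 reads), so each deposited signal was a read count over a size factor.

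The deposited values were tested on log2(value + 1) with limma 3.58.1 in R 4.3.3 (eBayes with trend, genotype as the only term, two-sided, Benjamini-Hochberg over 14455 genes with at least 40 in at least 1 library). This scale understates changes of low genes. Counts recovered from the deposited signal were tested with edgeR 4.0.16 and DESeq2 1.42.0 as alternatives. The step was tested on simulated data. Lengths and positions came from GENCODE M21 of GRCm38, which held 14796 of the 14865 identifiers. Intervals are 95% and, like the read floor, cover no error beyond their own model. The limma p-values set the genotype difference against the spread between libraries, with a shared variance for the single-mouse and the pooled libraries.

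Members, classes, marker and pathway lists were chosen with earlier results of these data known. Counts cover 34 members, of which 1 is not reported here by name; library values are printed for members under an unadjusted p of 0.05, members whose libraries did not overlap, the highest of each role, leukocyte and platelet members, and the 3 largest changes, and of pathway lists for genes under 0.05 and the highest per kb. Lamc3 was singled out after its values were seen. RefSeq promoter windows covered 22 members. In 20 of these, the first 20 transcribed bases occurred in a GENCODE transcript of the gene. Chains or markers with no row were not analysed here.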

Additional observations from a re-analysis of the deposited data

How the results depend on the processing

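The count of members at an unadjusted p under 0.05 was 0 by limma, edgeR and DESeq2. It was 1 (Itgam) in limma without a trend (log2 fold change 0.20, unadjusted p = 0.0133) and with quantile normalization (0.25, unadjusted p = 0.0380), and between 0 and 8 with each library left out in turn. At an adjusted p under 0.05 it was 0 in all 20 alternatives run. The count of members whose libraries did not overlap was 3 with quantile normalization and with TMM factors, and between 3 and 13 with each library left out (lowest without Gfi1+/+ replicate 1 or Gfi1cre/+ replicate 3, highest without Gfi1+/+ replicate 3). With 1 library left out, 19 of the 34 members changed sign in at least 1 of the 6 fits, among them Itgb2 (-0.037 without Gfi1+/+ replicate 1 to 0.22 without Gfi1+/+ replicate 2) and Itgb7 (-0.022 without Gfi1cre/+ replicate 2 to 0.15 without Gfi1+/+ replicate 2). Per kb of the longest transcript, the leukocyte alpha share was 1.72% in Gfi1+/+ and 1.97% in Gfi1cre/+, against 1.92% and 2.19% per kb of merged exons, whose length is 2.09 times the longest transcript for Itga6 and 1.07 times for Itgam. The median log2 fold change of leukocyte members lay between 0.04 and 0.23 with each library left out, that of tissue integrins between -0.03 and 0.07, and that of laminins between -0.01 and 0.11.

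Deviations of same-numbered libraries from their genotype means correlated at -0.09, 0.11 and -0.03 across 14455 genes. Those of libraries with different numbers correlated at -0.16 to 0.15, so these values cannot tell a small shared part from none. With the replicate block, the members at an unadjusted p under 0.05 numbered 0.

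The 95% intervals of Itgal, Itgb2, Itgb7, Lama3 and Lama1, with 29 to 134 reads per library, reached past 0.5 on the log2 scale. A library of 1 mouse and a pool of 3 mice carry different spread, the sex make-up of the libraries goes with genotype, and 11 members share exon bases with another annotated gene, 7 of them over 5%.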
